A study of Mus musculus with 36 samples.

Results

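Livers of SJL mice taken 6 h after 1 dose of acetaminophen (APAP, also called paracetamol) were set against SJL livers taken 3 h after it. SJL is the strain that the study's design calls resistant to liver injury by the drug. The arrays were chosen by their titles alone: 3 arrays of the 6 h mice and 3 of the 3 h mice, or 6 of the 36 arrays in the series. The 3 h and 6 h mice had received 300 mg/kg APAP by intraperitoneal injection, and 3 further SJL mice were the 0 h group. All mice had been fasted overnight before the dose. The other 27 arrays were livers of SMJ, DBA and C57 mice (SmJ, DBA/2 and C57B6 in the design, which calls them sensitive) at the same 3 times with 3 mice each. Each mouse gave 1 array of total liver RNA. The labels give no age and no sex, and no group injected without the drug at 3 h or 6 h was analysed here. Time of day and length of fasting therefore move with the time after the dose and cannot be told apart from it.

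APAP is turned by cytochrome P450 enzymes of the hepatocyte, chiefly around the central vein, into a reactive quinone imine. Glutathione traps the quinone imine until it runs out, and the rest binds proteins, many of them mitochondrial, which sets off oxidative stress and stress kinase signalling. A fasted liver depends on burning fatty acids in mitochondria and peroxisomes, a programme held up by the nuclear receptor PPARA, and on lipid droplets that store and release those fatty acids. The question of the comparison was which changes of the first 3 h went further by 6 h, and which were undone.

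A value below is a MAS5 signal, the brightness of a gene's probe set on a linear scale, with the mean of every array set to 150 by the authors. Differences are log2 of signal plus 2.77, with their standard errors (SE). A gene was called when its adjusted p was under 0.05 in a limma fit over all 36 arrays, so the spread behind each p was pooled over 12 groups. The 3 h group of SJL was the most variable of the 12. The median SD of a gene among its arrays was 0.339 on the log2 scale, against 0.22 in SJL at 6 h, 0.215 in SJL at 0 h and 0.195 to 0.256 in the other strains' groups. Within it the array of mouse SJL39 stood apart, with a correlation over all genes of 0.916 and 0.919 with its group mates, while SJL40 and SJL42 correlated at 0.945. The lowest correlation within any of the other 11 groups was 0.924. The ratio of 3′ to 5′ signal of the actin probe sets was 1.33 to 1.64 at 6 h, against 1.41 to 1.51 at 3 h, with 1.41 in SJL39. The median signal of SJL39 was 28.23, against 30.71 in SJL40 and 33.18 in SJL42. Whether RNA or array quality had a part in the distance of SJL39 was not tested. A fit of the 6 arrays alone made no call, with a smallest adjusted p of 0.0503 and 1091 genes at an unadjusted p under 0.05. A fit of the 9 SJL arrays made 2 calls between 3 h and 6 h, Plin2 and Cidec. Other calls between 3 h and 6 h therefore rest on a spread pooled with the other strains.

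Between 3 h and 6 h, 203 of 14057 tested genes rose in SJL liver (1.44%) and 88 fell (0.626%). Of these, 89 rises and 27 falls were at least 2-fold. Without SJL39, 104 of the 203 rises and 44 of the 88 falls were called again. By comparison 3 h against 0 h gave 629 rises (4.47%) and 795 falls (5.66%), and 6 h against 0 h gave 515 (3.66%) and 467 (3.32%). These comparisons share arrays, so their counts are not independent.

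Early falls that came back made up the largest class of second calls. Of the 795 genes that fell by 3 h, 118 (14.8%) rose again from 3 h to 6 h, and all but 3 of the 118 were no longer called different from 0 h at 6 h. The median log2 difference of the 118 was -0.82 at 3 h against 0 h, 0.85 at 6 h against 3 h and 0.0079 at 6 h against 0 h. No early fall was called lower again by limma, and 7 were lower at an unadjusted p under 0.05. The remaining 677 early falls (85.2%) had no second call, and 205 of them were still called lower than 0 h at 6 h. Of the 629 early rises, 15 (2.38%) went on rising and 35 (5.56%) fell back, 33 of the 35 to a level not called different from 0 h. Another 579 early rises (92.1%) had no second call, and 292 of them were still called higher than 0 h at 6 h. A further 70 genes rose and 53 fell after 3 h without an early call. The 3 h arrays stand in both steps, so a high or low value at 3 h enters the first and the second step with opposite signs.

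**Figure D1:**
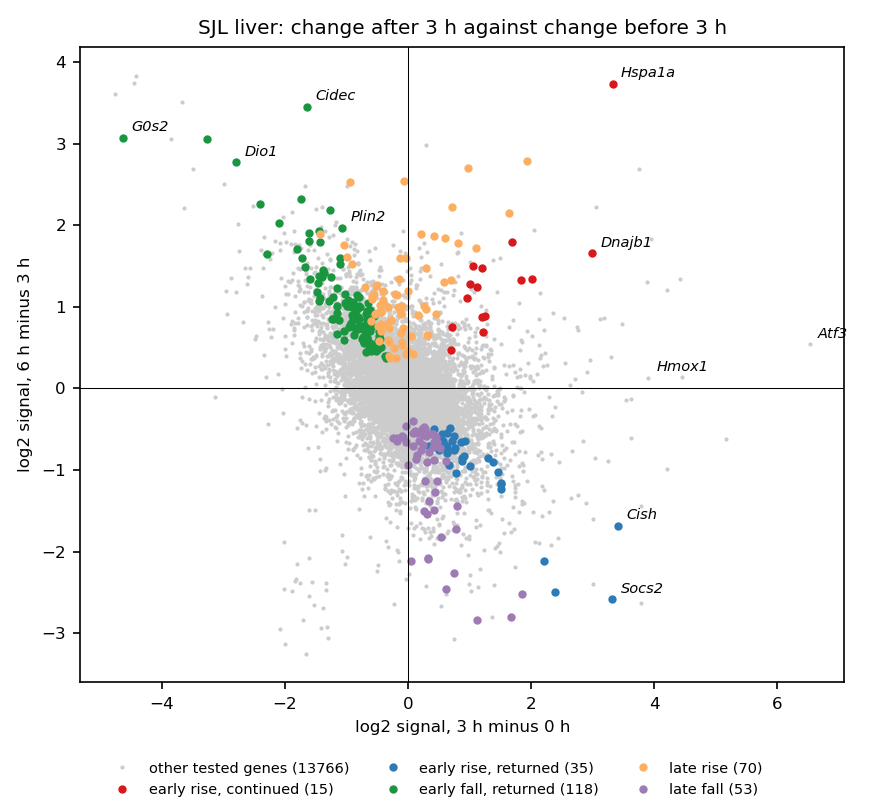
Each point is a tested gene in SJL liver, with the log2 difference of 3 h minus 0 h on the horizontal axis and of 6 h minus 3 h on the vertical axis. Colours mark the classes, of which the returned early falls at the upper left (118 genes) outnumber the continued early rises at the upper right (15 genes). Both axes contain the 3 h arrays.

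Genes of fatty acid oxidation fell by 3 h and came back by 6 h. Of 21 tested members of a list of fatty acid oxidation enzymes and PPARA targets, 19 fell by 3 h, against 5.66% of all tested genes, and 14 rose from 3 h to 6 h, against 1.44%. None was called different from 0 h at 6 h in the limma fit, and 2 were at an unadjusted p under 0.05. All 21 had a higher mean at 6 h than at 3 h, with log2 differences of 0.14 to 2.32 and a median of 0.71, against a median of -0.027 over all tested genes. Without SJL39, 11 of the 21 rose and the median was 0.50. Leaving out SJL44 left 9 rises.

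Ehhadh, the bifunctional enzyme of peroxisomal fatty acid oxidation, shows the pattern with little scatter. Its signals at 0 h were 7806, 11369.6 and 8027, at 3 h 2826, 3200.2 and 3749, and at 6 h 8239, 7934 and 7700.4. The 3 h arrays lay below all others, and the 6 h arrays lay within the 0 h range or just under it. From 3 h to 6 h it rose 2.46-fold, a log2 change of 1.30 (SE 0.16, adjusted p = 4.21e-05). Angptl4, a secreted inhibitor of lipoprotein lipase and a PPARA target, had signals of 2721, 2770.2 and 2789 at 6 h, against 849.6, 802 and 1292 at 3 h. All 6 h arrays stood above all 3 h arrays, with a log2 change of 1.52 (SE 0.16, adjusted p = 3.05e-06). Pdk4, the kinase that blocks pyruvate dehydrogenase and so spares glucose, had signals of 621, 889 and 589 at 6 h, against 101.1, 193 and 126 at 3 h. The groups did not overlap, and the log2 change was 2.32 (SE 0.46, adjusted p = 0.00636).

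Acyl-CoA thioesterases, which free fatty acids from coenzyme A, took part. Acot2, the mitochondrial form, had signals of 1078, 854 and 556 at 6 h, against 120.5, 136 and 319.7 at 3 h, and its cytosolic relative Acot1 had 2092, 2486 and 1488 at 6 h, against 449.9, 1092 and 889.8 at 3 h. Neither pair of groups overlapped, and the log2 changes were 2.18 (adjusted p = 1.05e-04) and 1.38 (adjusted p = 0.00638). Decr1, which prepares unsaturated fatty acids for oxidation, and Etfdh, which passes their electrons to ubiquinone, rose less, by log2 0.76 (adjusted p = 1.59e-04) and 0.62 (adjusted p = 0.0019). Ppara itself fell at 3 h but had no call afterwards: its signals at 0 h were 1898, 1187 and 1569, at 3 h 460.0, 732 and 603, and at 6 h 1024, 969 and 588. Its 6 h arrays overlapped the 3 h arrays, and the adjusted p was 0.41. Cpt1a, the carnitine transferase that admits fatty acids to mitochondria, had a log2 difference of 0.44 between 6 h and 3 h (adjusted p = 0.0628).

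Fabp1, the abundant cytosolic fatty acid carrier of hepatocytes, was the member of this list whose promoter held a direct repeat of the motif AGGNCA spaced by 1 base, the form that PPARA binds with its partner RXR. The sequence is shown because 1 of the list's 16 members with a window in the RefSeq promoter table held this repeat on either strand, against 0.434% of tested genes. Neither this motif nor a search of this list was among those planned, and 1 match is too few to weigh against that share. The window runs from 250 bases before to 50 after the annotated start on GRCm38.p6, chr6:71199629-71199928 on the plus strand, and capitals mark the repeat, which lies here on the opposite strand.
Fabp1: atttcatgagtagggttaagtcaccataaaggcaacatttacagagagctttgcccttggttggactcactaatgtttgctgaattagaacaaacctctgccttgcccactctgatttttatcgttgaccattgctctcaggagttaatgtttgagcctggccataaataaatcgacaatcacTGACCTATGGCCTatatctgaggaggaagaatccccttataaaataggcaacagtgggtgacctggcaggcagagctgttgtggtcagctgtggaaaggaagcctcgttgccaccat
Signals of Fabp1 were 18388, 19069 and 20911 at 6 h, against 17451, 6749 and 12458 at 3 h, a log2 change of 0.77 (SE 0.19, adjusted p = 0.0292). The lowest 6 h array stood above the highest 3 h array, that of SJL39, by a narrow margin, and the call was lost without SJL40, SJL44, SJL45 or SJL48 and with quantile normalization. A match in this window is a description of its letters and does not show binding.

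Several lipid droplet genes also fell by 3 h and rose afterwards, and Plin2 and Cidec ended above their starting level. Of 12 tested members of a droplet and lipolysis list, 7 fell by 3 h, against 5.66% of all tested genes, and 5 rose from 3 h to 6 h, against 1.44%. The mean at 6 h was above that at 3 h for 9 of the 12, and the lowest log2 difference in the list was -1.17. Plin2, the main droplet coat protein of hepatocytes, had the smallest p of all 14057 genes. Its signals at 0 h were 7187, 6417 and 6105, at 3 h 2779, 2644 and 4120.0, and at 6 h 12395, 11694 and 12564. The 6 h arrays stood above both earlier groups without overlap, at 3.92-fold the 3 h level (log2 1.97, SE 0.15, adjusted p = 4.82e-09), and at 6 h it was called higher than at 0 h (log2 0.90, adjusted p = 2.08e-04). Cidec, which fuses droplets into larger ones, went the same way. Its signals at 0 h were 123, 167.9 and 124, at 3 h 39.9, 31.6 and 57.4, and at 6 h 536, 489.5 and 435. It rose 10.9-fold from 3 h to 6 h (log2 3.45, SE 0.43, adjusted p = 2.86e-05), and at 6 h it too was called higher than at 0 h (log2 1.81, adjusted p = 0.00815).

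G0s2, an inhibitor of the droplet lipase encoded by Pnpla2, had the deepest early fall of the droplet list. Its signals at 0 h were 3519, 2363 and 1484, at 3 h 26.5, 136 and 201, and at 6 h 1142, 1067 and 399. The 3 groups did not overlap, and a log2 change of -4.62 by 3 h was followed by one of 3.07 (SE 0.50, adjusted p = 0.00108), which left all 6 h arrays below all 0 h arrays. At 6 h the difference from 0 h was -1.55 with an adjusted p of 0.0609. Mgll, the lipase of monoacylglycerols, had signals of 2489, 1998 and 1905 at 6 h, against 566, 728 and 1342 at 3 h, with a log2 change of 1.36 (SE 0.21, adjusted p = 4.34e-04). Plin5, a droplet protein at contacts with mitochondria, had 3228, 2439 and 2147 at 6 h, against 249, 1205 and 1334 at 3 h, with a log2 change of 1.79 (SE 0.38, adjusted p = 0.00957). Its lowest 3 h signal belonged to SJL39, and its call was lost when the 6 h mouse SJL44 was left out.

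**Figure D2:**
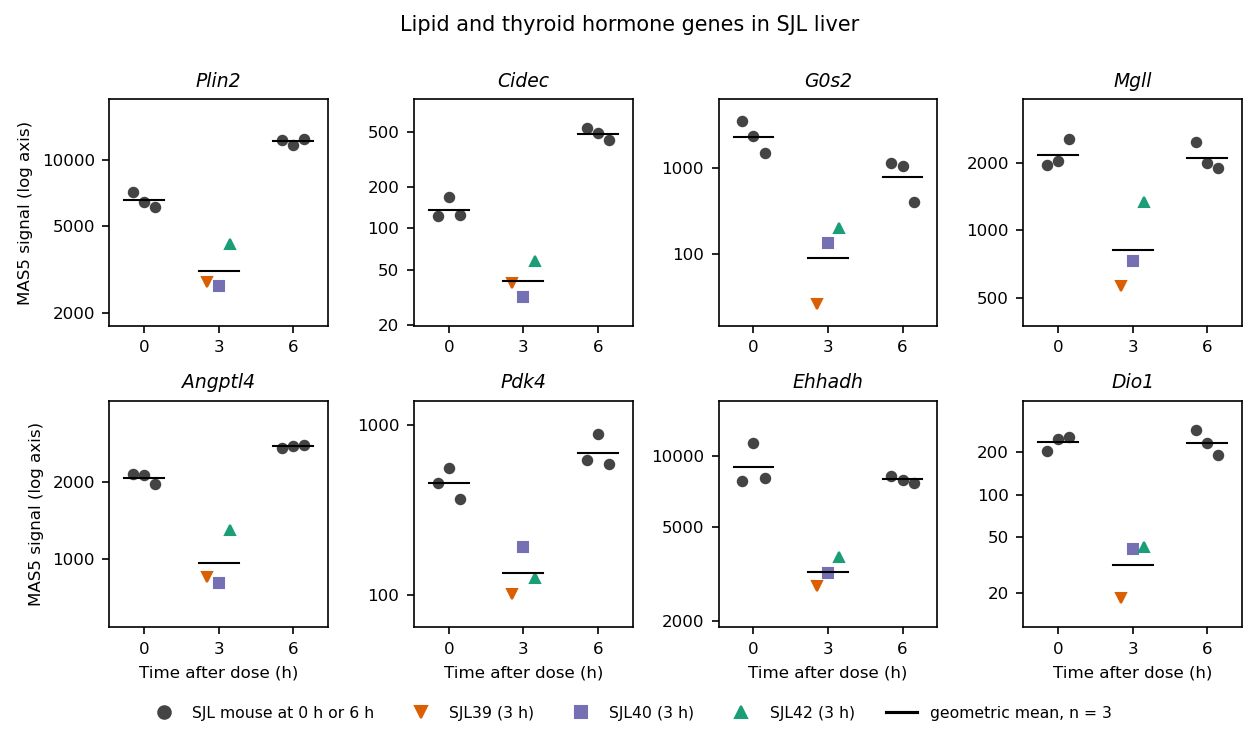
MAS5 signals on log axes of 8 genes in the 9 SJL livers at 0 h, 3 h and 6 h after APAP, with 1 symbol per mouse, the 3 h mice marked apart and bars at the geometric mean of 3 mice. In all 8 panels the 3 h arrays lie below every 6 h array and below every 0 h array.

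Dio1 and Chrna2, which are in no lipid list, also fell and came back. Dio1, the deiodinase that makes active thyroid hormone in liver, had signals of 288, 231.4 and 192 at 6 h, against 18.4, 40.8 and 42.3 at 3 h. Its log2 changes of -2.79 by 3 h and 2.77 from 3 h to 6 h (SE 0.22, adjusted p = 1.48e-08) left a difference from 0 h of -0.01 at 6 h. Chrna2, a subunit of nicotinic acetylcholine receptors, had signals of 193, 174 and 139 at 6 h, against 5.97, 23.5 and 34.6 at 3 h, with a log2 change of 3.05 (SE 0.34, adjusted p = 4.51e-06). At 3 h the signals of SJL39 and SJL40 lay under 30.8, the median of all values on the arrays. Atf5, a transcription factor of the mitochondrial stress response, fell at 3 h and had 4006, 4005 and 3706 at 6 h, against 1833, 2524 and 2699 at 3 h, with a log2 change of 0.75 (SE 0.15, adjusted p = 0.00826).

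Other rises had their first call after 3 h. Akr1b8, an aldo-keto reductase that detoxifies aldehydes, had signals of 369, 500.4 and 438 at 6 h, against 50.1, 71.6 and 105 at 3 h. It had no early call, with a log2 difference of -0.06 at 3 h against 0 h, and then rose by 2.54 (SE 0.27, adjusted p = 3.10e-06). Fgf21, the fasting hormone of the liver and a PPARA target, had signals of 1335, 1147 and 575 at 6 h, against 40.3, 215 and 496 at 3 h. The groups did not overlap but the 3 h mice differed widely, and the change of 2.52 (SE 0.52, adjusted p = 0.00829) was not called without SJL44. H3f3b, which encodes histone H3.3, and Ccn1, a matricellular protein, rose by 2.78 (adjusted p = 0.0196) and 2.22 (adjusted p = 0.0244). Each of these 2 calls was lost without SJL39, SJL40, SJL44 or SJL45.

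The SJL change from 3 h to 6 h was tested against the mean change of the other 3 strains over the same hours. That difference was positive for 377 of 14057 genes (2.68%) and negative for 167 (1.19%). It uses the same SJL 3 h arrays. Of the 21 fatty acid oxidation genes 16 were among the 377. The list's median change from 3 h to 6 h was 0.71 in SJL, against -0.15 (SMJ), 0.0069 (DBA) and -0.13 (C57). For the 12 droplet genes, of which 6 differed, the medians were 0.85 in SJL, against -0.20 (SMJ), 0.078 (DBA) and -0.14 (C57).

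Single genes show the size of the gap between strains. Most were named for their change in SJL, which is 1 term of this difference. Plin2 changed by log2 1.97 in SJL, against 0.64 (SMJ), 0.23 (DBA) and -0.10 (C57), and the difference from their mean was 1.71 (SE 0.17, adjusted p = 6.18e-07). G0s2 differed by 3.44 (SE 0.58, adjusted p = 9.74e-04) and Dio1 by 3.10 (SE 0.26, adjusted p = 6.09e-08). Fabp1 rose in SJL but its difference from the other strains was not called (0.64, adjusted p = 0.103). Elovl3, an elongase of very long fatty acids, differed by 3.03 (adjusted p = 0.0077) although its own change of 1.92 in SJL was not called (adjusted p = 0.0762). In the other strains it changed by -0.49 (SMJ), -0.38 (DBA) and -2.46 (C57), of which that in C57 was called (adjusted p = 0.0106). Its signals were 3895, 5446 and 4062 at 6 h, against 3703, 838 and 504 at 3 h, where SJL39 stood near the 6 h mice and SJL40 and SJL42 far below.

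**Figure D3:**
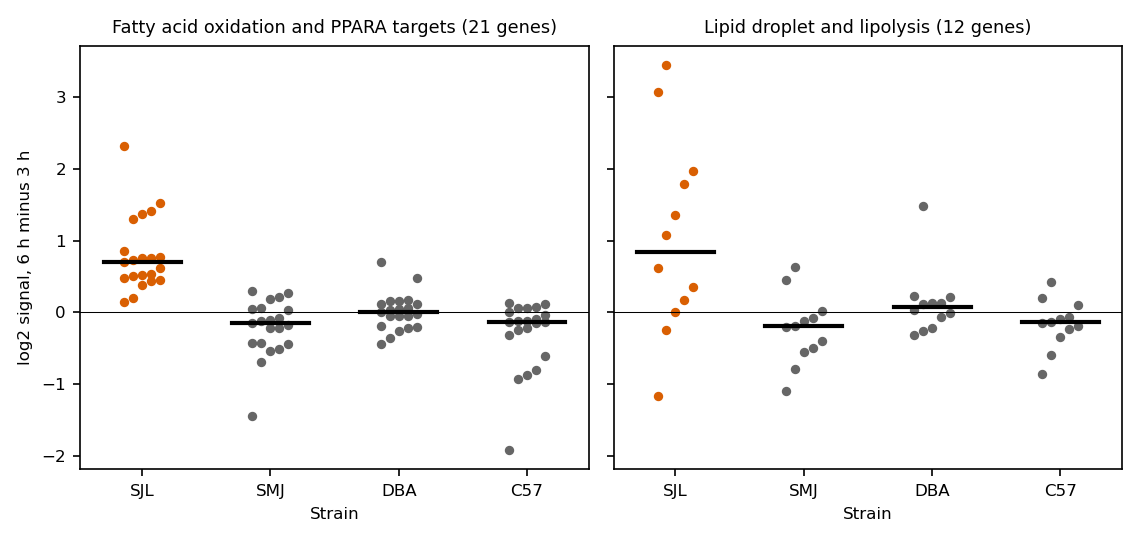
Log2 change of signal from 3 h to 6 h in each strain, with 1 point per gene, for 21 fatty acid oxidation and PPARA target genes and 12 lipid droplet genes, and bars at the median. The SJL medians of 0.71 and 0.85 lie above those of SMJ, DBA and C57, which lie between -0.20 and 0.078.

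Some heat shock proteins, the chaperones that refold damaged proteins, were called higher again after 3 h. Of 19 tested heat shock proteins and co-chaperones, 7 rose by 3 h, against 4.47% of all tested genes, 6 rose from 3 h to 6 h, against 1.44%, and 15 were higher than 0 h at 6 h, against 3.66%. The median log2 difference was 0.55 at 3 h against 0 h and 0.71 at 6 h against 3 h. The count of 6 rested on single mice. It was 0 with array weights, 0 without SJL39, 0 without SJL44 and 0 without SJL45, 1 without SJL40, and 10 without SJL42 or without SJL48. The 15 genes higher at 6 h than at 0 h were 14 or 15 when any of the 6 mice was left out.

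By the list's median the 3 h mice stood in the order SJL39, SJL40, SJL42 from low to high, an order that not every member kept. Median log2 deviations from the 0 h mean were 1.38 in SJL44, 1.57 in SJL45 and 0.753 in SJL48 at 6 h, against 0.193 in SJL39, 0.624 in SJL40 and 1.03 in SJL42 at 3 h. SJL42 at 3 h thus stood above SJL48 at 6 h. Hspa1a, the inducible HSP70 chaperone, had signals of 3736, 4549 and 1217 at 6 h, against 22.0, 274 and 1285 at 3 h and 22.5, 7.45 and 31.1 at 0 h. SJL39 was at the 0 h level at 3 h and SJL42 was above the lowest 6 h mouse, so the groups overlapped and the log2 change of 3.73 had an SE of 0.89 (adjusted p = 0.0245). Dnajb1, the HSP40 partner of HSP70, had 10815, 10559.9 and 5058 at 6 h, against 1591, 1537 and 7445 at 3 h, and again SJL42 exceeded SJL48 (log2 1.66, SE 0.44, adjusted p = 0.0427).

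Hsph1, the HSP110 exchange factor of HSP70, changed by 1.72 (SE 0.45) and Bag3, the co-chaperone that hands HSP70 clients to autophagy, by 1.32 (SE 0.35), both with an adjusted p of 0.0427. Hsp90aa1, the inducible HSP90, changed by 0.87 (adjusted p = 0.0303) and Hspe1, the mitochondrial HSP10, by 0.66 (adjusted p = 0.0151). Hspa1a, Dnajb1, Bag3 and Hsp90aa1 belong to the 15 early rises that continued.

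Heat shock factor binds inverted repeats of GAA, and the promoters of 3 of these genes are printed because 11 of the list's 16 members with a promoter window held GAANNTTC or TTCNNGAA, against 14.3% of tested genes with a window. Both forms read the same on either strand and can overlap each other. Windows of 300 bases are from RefSeq on GRCm38.p6, chr17:34972107-34972406 on the minus strand, chr5:149636287-149636586 on the minus strand and chr7:128523333-128523632 on the plus strand, and capitals mark each match.
Hspa1a: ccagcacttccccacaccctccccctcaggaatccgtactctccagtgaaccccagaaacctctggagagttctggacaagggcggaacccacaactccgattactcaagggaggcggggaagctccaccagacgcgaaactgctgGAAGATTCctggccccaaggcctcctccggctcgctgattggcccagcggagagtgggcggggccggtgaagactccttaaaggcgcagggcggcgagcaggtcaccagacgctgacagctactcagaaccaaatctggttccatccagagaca
Hsph1: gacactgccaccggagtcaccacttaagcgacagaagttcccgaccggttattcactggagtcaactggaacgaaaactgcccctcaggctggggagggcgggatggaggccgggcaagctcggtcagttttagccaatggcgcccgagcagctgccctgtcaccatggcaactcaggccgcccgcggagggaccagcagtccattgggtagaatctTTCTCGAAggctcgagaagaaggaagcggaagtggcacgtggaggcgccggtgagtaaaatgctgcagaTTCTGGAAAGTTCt
Bag3: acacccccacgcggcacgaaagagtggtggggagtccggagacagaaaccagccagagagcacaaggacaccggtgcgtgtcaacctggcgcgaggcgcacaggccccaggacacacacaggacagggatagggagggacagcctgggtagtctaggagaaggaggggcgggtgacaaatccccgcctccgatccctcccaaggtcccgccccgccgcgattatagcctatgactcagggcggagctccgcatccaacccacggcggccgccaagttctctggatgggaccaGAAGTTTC
Hspa1a has 1 match before the start, Bag3 has 1 match after it, and Hsph1 has 3 matches, of which the last overlaps the second. The Dnajb1 window held none, from which nothing follows about the factor. Of the 15 early rises that continued, 4 of 12 with a window held such a unit, Hspa1a and Bag3 among them. The antioxidant response element TGACNNNGC, on either strand, was in 6 of the same 12, against 16.5% of tested genes with a window. The AP-1 site TGANTCA was in 1, against 7.11%, and the CRE site TGACGTCA in 1, against 3.21%. The antioxidant response element was also in 9 of 28 early rises that returned and in 9 of 23 NRF2 targets with a window, so it was not particular to the continued rises. Of 19 immediate early genes with a window, 3 held a heat shock unit, 4 the antioxidant response element, 0 the AP-1 site and 1 the CRE site.

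Immediate early genes, the transcription factors and regulators switched on within minutes of stress, were mostly up by 3 h. Of 25 tested, 16 rose by 3 h, against 4.47% of all tested genes, 18 were higher than 0 h at 6 h, against 3.66%, and 14 were higher at both times. Between 3 h and 6 h 3 rose (Fosb, Ier2 and Ier5), against 1.44%. Their scatter at 3 h followed that of the heat shock genes, with summed signals over the list of 57640, 55620 and 53300 at 6 h, against 12030 in SJL39, 26080 in SJL40 and 51220 in SJL42 at 3 h. Fos had signals of 7451, 8167 and 7985 at 6 h, against 178, 1397 and 7125 at 3 h, and Jun had 11857, 11309 and 11975 at 6 h, against 450.3, 3244 and 10662 at 3 h. For both genes SJL42 was near the 6 h mice and SJL39 was near the 0 h mice, and neither change was called (adjusted p = 0.146 and 0.0889). Egr1 had 11795, 11357 and 11768 at 6 h, against 810.2, 3829 and 11262 at 3 h, with the same order of mice (adjusted p = 0.24).

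Ier5, a regulator of heat shock factor activity, changed by log2 1.48 (SE 0.31, adjusted p = 0.00948) with no overlap between 686, 799.6 and 563 at 6 h and 124, 270.5 and 415 at 3 h. Fosb and Ier2 changed by 2.70 (adjusted p = 0.0209) and 2.15 (adjusted p = 0.0397), and all 3 genes, Ier5 included, lost their calls without SJL39 and without SJL45. Without SJL39, 18 of the 25 were called higher at 3 h than at 0 h. Atf3, the stress-induced member of the ATF family, was already at 1844, 4499.6 and 5489 at 3 h, against 40.1, 35.2 and 33.2 at 0 h, and stayed at 6084, 5511 and 4224 at 6 h. Its step after 3 h was 0.55 (SE 0.59, adjusted p = 0.736).

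**Figure D4:**
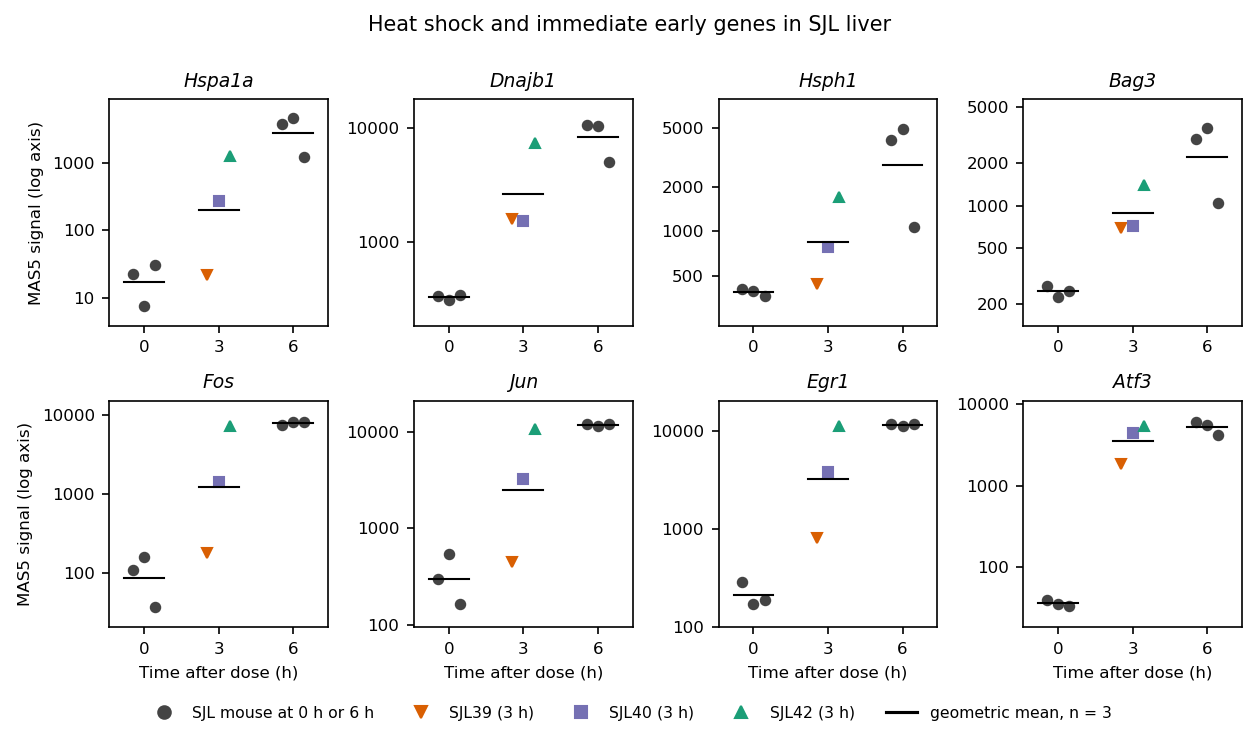
MAS5 signals on log axes of 4 heat shock genes (top) and 4 immediate early genes (bottom) in SJL livers at 0 h, 3 h and 6 h, with 1 symbol per mouse and bars at the geometric mean of 3 mice. At 3 h SJL42 is the highest mouse in all 8 panels, and SJL39 the lowest in every panel but that of Dnajb1.

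Of the other early rises that continued, Ifrd1 had separate ranges at all 3 times. Ifrd1, a transcriptional coregulator, had signals of 4224, 4470.4 and 2838 at 6 h, against 1396, 1355 and 1735 at 3 h and 307, 427 and 372 at 0 h. Its second step was log2 1.34 (SE 0.20, adjusted p = 4.06e-04). Zfand5, a zinc finger protein, Tubb2a, a beta tubulin, and Adamts1, a secreted metalloprotease, rose by 1.28, 1.24 and 1.11 (adjusted p = 0.00308, 0.0202 and 0.00389). The Tubb2a call was lost without SJL39, SJL44 or SJL45. Sox9, a transcription factor of bile duct cells that injured hepatocytes can switch on, had 134, 212 and 212 at 6 h, against 46.1, 66.8 and 79.0 at 3 h, with a log2 change of 1.50 (SE 0.30, adjusted p = 0.00773). Other probe sets for Sox9 gave 0.89 (adjusted p = 0.404) and -0.047 (adjusted p = 0.993), so its call depends on the probe set, and it was also lost with array weights. Dusp5, a nuclear phosphatase of ERK, rose by 1.80 (adjusted p = 0.0352), a call lost without any 1 of the 6 mice.

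Genes of the NRF2 antioxidant response rose mainly before 3 h. Of 27 tested, 13 rose by 3 h, against 4.47% of all tested genes, 12 were higher than 0 h at 6 h, against 3.66%, and 10 were higher at both times. Between 3 h and 6 h 1, Gclc, rose, a share near the 1.44% of all tested genes. Gclc, the catalytic subunit of the enzyme that limits glutathione synthesis, had signals of 6455, 7336 and 8273 at 6 h, against 3954, 3128 and 5019.5 at 3 h and 1710.2, 1608 and 1685 at 0 h. All 3 ranges were separate, with a step of 0.89 (SE 0.23, adjusted p = 0.0362) after 3 h, which was not called without SJL39, SJL40, SJL44, SJL45 or SJL48. Hmox1, the haem oxygenase, had 6284, 5843 and 8581 at 6 h, against 5022, 8167 and 5851 at 3 h, overlapping ranges with a difference of 0.13 (adjusted p = 0.944). Txnrd1, thioredoxin reductase, was 0.52 higher at 6 h, with no overlap but no call (adjusted p = 0.114).

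Feedback inhibitors of cytokine and growth hormone signalling rose early, and Socs2 and Cish fell back. Of 15 tested feedback genes, 9 rose by 3 h, against 4.47% of all tested genes, and 2 fell from 3 h to 6 h, against 0.626%. At 6 h, 7 were higher than 0 h, against 3.66%. Socs2 and Cish are induced through STAT5 and shut that signalling off. Socs2 had signals of 131, 181.3 and 192 at 6 h, against 1162, 1989.8 and 442 at 3 h and 75.4, 109 and 116 at 0 h. The 6 h range lay above the 0 h range and far below the 3 h range, with a log2 change of -2.58 (SE 0.55, adjusted p = 0.0112), a call lost without SJL40 or SJL44. Cish had 269, 275 and 314 at 6 h, against 675, 1669.8 and 692 at 3 h and 96.9, 77.9 and 77.8 at 0 h, with a log2 change of -1.68 (SE 0.28, adjusted p = 0.00165). It remained called higher than 0 h at 6 h (log2 1.73, adjusted p = 2.15e-04).

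STAT factors bind TTCNNNGAA, and the Cish promoter is shown because it held 2 matches beside each other. In the feedback list 5 of 12 genes with a window held the motif, against 8.43% of tested genes with one. They were Cish, Nfkb2, Socs3, Tnip1 and Zfp36, of which Cish alone was called after 3 h. Socs2 was not among them. This motif was chosen after the change of Cish was known. The window is RefSeq's on GRCm38.p6, chr9:107296409-107296708 on the plus strand, and capitals mark the matches, which read the same on both strands.
Cish: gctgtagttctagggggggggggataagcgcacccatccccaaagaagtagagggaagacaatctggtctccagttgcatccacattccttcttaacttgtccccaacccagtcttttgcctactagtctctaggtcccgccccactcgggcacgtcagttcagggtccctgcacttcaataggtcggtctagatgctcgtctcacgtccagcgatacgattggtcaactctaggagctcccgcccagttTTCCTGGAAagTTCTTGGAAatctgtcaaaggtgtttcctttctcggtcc
Both matches lie in the 50 bases after the annotated start.

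Returned early rises outside this list included a retinoic acid hydroxylase and a cell death gene. Cyp26a1, which breaks down retinoic acid, had signals of 93.7, 91.6 and 121 at 6 h, against 277, 1161 and 627 at 3 h and 107, 114.6 and 109 at 0 h. The 6 h arrays overlapped the 0 h arrays, after a log2 change of -2.50 (SE 0.40, adjusted p = 8.94e-04). Mbd1, a reader of methylated DNA, changed by -1.16 (adjusted p = 0.0019), and Bcl2l11, which encodes the death protein BIM, by -1.23 (adjusted p = 0.0168), both without overlap. Onecut1, a hepatocyte transcription factor also called HNF6, had 19.2, 32.7 and 31.4 at 6 h, against 38.3, 379.6 and 137 at 3 h, with a log2 change of -2.12 (SE 0.53, adjusted p = 0.0303), a call lost without SJL40, SJL42, SJL44, SJL45 or SJL48. Crp, the pentraxin C-reactive protein, changed by -0.72 (adjusted p = 0.0169). The Crp call was lost without SJL39, SJL40, SJL44 or SJL45, and the Bcl2l11 call without SJL40, SJL44 or SJL48. Set against the mean change of the other strains, a difference that contains the SJL fall these genes were chosen for, the SJL change was lower for Socs2 (-2.26, adjusted p = 0.0433), Cish (-1.65, adjusted p = 0.00454) and Cyp26a1 (-2.31, adjusted p = 0.0047).

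**Figure D5:**
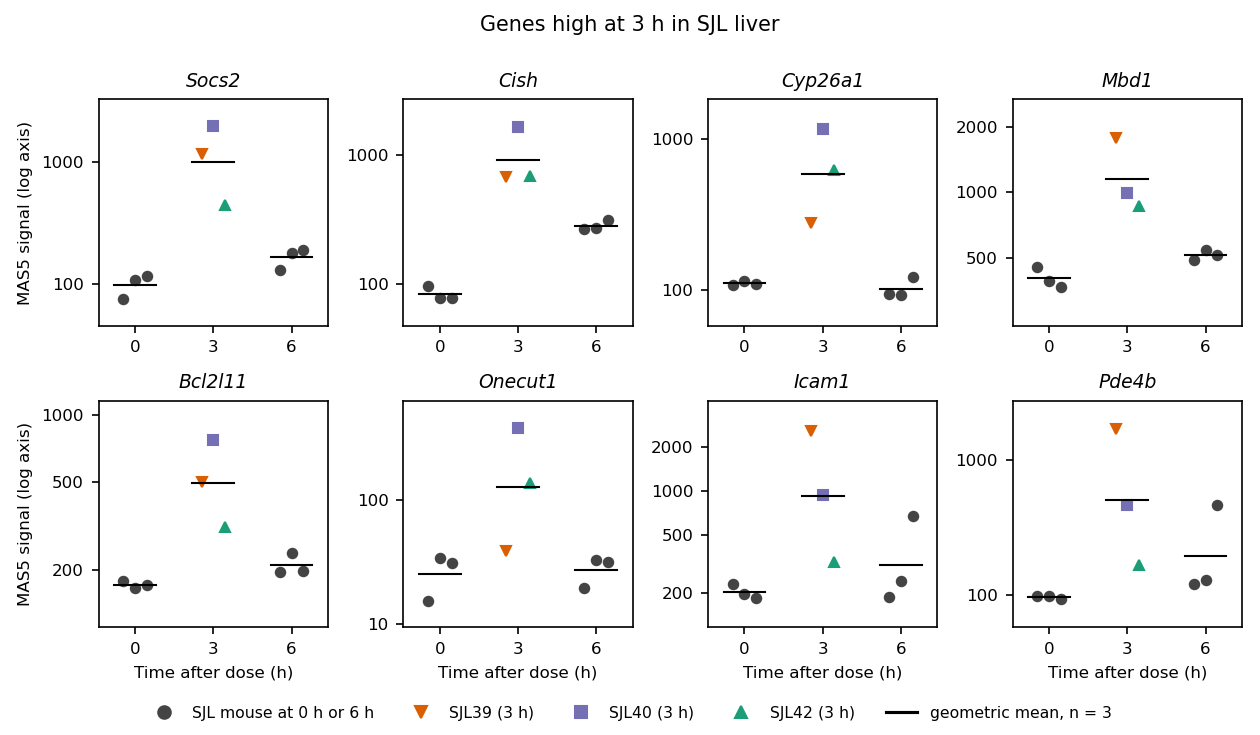
MAS5 signals on log axes of 8 genes in SJL livers at 0 h, 3 h and 6 h, with 1 symbol per mouse and bars at the geometric mean of 3 mice. The first 6 genes passed as early rises that returned. For Icam1 and Pde4b the 3 h mice are spread widely, with SJL39 highest and SJL42 lowest.

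Cytokines, chemokines and adhesion molecules gave no call between 3 h and 6 h in limma. Of 25 tested, 7 were higher than 0 h at 3 h, against 4.47% of all tested genes, and 5 at 6 h, against 3.66%. For 6 h against 3 h, 6 had an unadjusted p under 0.05, against 2068 of all 14057 tested genes. Summed signals of the list were 5115 in SJL44, 5585 in SJL45 and 13420 in SJL48 at 6 h, against 18660 in SJL39, 11290 in SJL40 and 6114 in SJL42 at 3 h. Here SJL39 was the highest 3 h mouse. Cxcl1, a neutrophil attractant, had 2503, 2856 and 8414 at 6 h, against 8052, 7216 and 3809 at 3 h, overlapping ranges that were both far above 176, 175 and 148 at 0 h. Icam1, the adhesion molecule that neutrophils hold to, had 188, 241 and 678 at 6 h, against 2606, 943 and 328 at 3 h (log2 -1.56, adjusted p = 0.0651). The 6 h mouse SJL48 stood apart from SJL44 and SJL45 in both genes.

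Set against the other strains, 1 of the 25, Icam1, had a lower change in SJL, against 1.19% of all tested genes. At an unadjusted p under 0.05 the difference stood in 10 of the 25, against 2429 of all 14057 tested genes. The list's median change from 3 h to 6 h was -0.14 in SJL, against 0.87 (SMJ), 0.77 (DBA) and 0.63 (C57). Icam1 differed by -2.03 (adjusted p = 0.0228). Outside that list the difference was also negative for Socs3, a feedback inhibitor of STAT3 (-2.26, adjusted p = 0.0123), Pde4b, a cyclic AMP phosphodiesterase of inflammatory cells (-2.68, adjusted p = 0.0065) and Ier3, a stress and NF-kB target (-2.45, adjusted p = 0.00184). Pde4b has other probe sets, which gave log2 differences of -1.28, -1.14 and 0.37 between 6 h and 3 h in SJL, beside the -1.38 of the one used, and none of these was called. Neutrophil markers, 9 of them tested, gave no call after 3 h (1 at an unadjusted p under 0.05). The summed signal of the 10 measured was 593 to 2631 at 6 h, against 1034 to 2417 at 3 h and 418 to 971 at 0 h. Their median change from 3 h to 6 h was -0.49 in SJL, against 1.34 (SMJ), 1.15 (DBA) and 0.60 (C57). None of the 9 was called different from the other strains, with 5 at an unadjusted p under 0.05. S100a9 had 166.5, 145 and 946 at 6 h, against 954, 821 and 318 at 3 h, so SJL48 was again the highest 6 h mouse. Mmp8, made by neutrophils, was called higher than 0 h at 3 h (log2 2.29, adjusted p = 0.0228) but not at 6 h (adjusted p = 0.566). The part of neutrophils in the cytokine values was not tested. In a whole liver, fewer cells of a type and less RNA per cell cannot be told apart.

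The late falls, which had no early call, included the P450 enzymes Cyp2b9 and Cyp2c38. Cyp2b9 had signals of 32.1, 6.14 and 18.4 at 6 h, against 78.6, 104 and 269.8 at 3 h (log2 -2.83, SE 0.58, adjusted p = 0.00826), and Cyp2c38 had 436, 262 and 169.7 at 6 h, against 510.5, 1751 and 1729 at 3 h (log2 -2.09, SE 0.43, adjusted p = 0.00892). The Cyp2b9 call was lost without SJL45, and the Cyp2c38 call, like that of the transporter Slc4a9, without SJL40 or SJL48. Abcb1a, a drug efflux pump, had 21.2, 15.2 and 42.9 at 6 h, against 100.1, 59.0 and 109 at 3 h, a change of -1.73 (adjusted p = 0.0273) that was lower than the mean of the other strains (difference -2.59, adjusted p = 0.00261). Its call was lost without SJL39, SJL42, SJL44 or SJL45. Slc4a9, a bicarbonate transporter family member, had 5.87, 5.08 and 2.61 at 6 h, against 24.3, 84.4 and 50.3 at 3 h (log2 -2.81, adjusted p = 0.0144), with all 6 h values under 30.8, the median of all values. The 6 h signals 6.14 and 18.4 of Cyp2b9 and 21.2 and 15.2 of Abcb1a also lay under this median. The size of the falls of Cyp2b9, Abcb1a and Slc4a9 is therefore uncertain.

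Bile acid genes gave 1 rise and 1 fall among 16, against 1.44% and 0.626% of all tested genes. Abcb4, the phospholipid pump of the bile canaliculus, had signals of 3189, 3059.5 and 2747 at 6 h, against 1199, 2144 and 2395 at 3 h (log2 0.71, adjusted p = 0.0213), a return after an early fall. Abcg5, a sterol pump of the same membrane, changed by -0.73 (adjusted p = 0.0301). Both calls were lost without SJL44 and without SJL45, that of Abcb4 also without SJL39 and that of Abcg5 also without SJL40 or SJL42. Cyp7a1, which catalyses the first step from cholesterol to bile acids, was lower than 0 h at both times and had 1457, 970.0 and 1003 at 6 h, against 300.5, 667 and 1304 at 3 h, with no call between (adjusted p = 0.537). Over those hours its log2 difference was -1.79 (SMJ), -1.80 (DBA) and -3.11 (C57), and the SJL difference from their mean was 3.04 (SE 0.64, adjusted p = 0.00656).

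Markers of pericentral hepatocytes, the cells that activate APAP, gave no call between 3 h and 6 h in limma. At an unadjusted p under 0.05 were 5 of 15 markers, against 2068 of all 14057 tested genes. Their median was -0.39 in SJL, against -0.80 (SMJ), -0.66 (DBA) and -1.91 (C57), and for 5 of 15 the SJL change was higher than the mean of the others, against 2.68% of all tested genes. At 6 h, 5 were lower than 0 h, against 3.32% of all tested genes. Oat, ornithine aminotransferase, had 3632, 3200.4 and 1899 at 6 h, against 5276, 7066 and 3787 at 3 h (log2 -0.89, adjusted p = 0.11), with a difference from the other strains of 1.31 (adjusted p = 0.0211). Slc1a2, a glutamate transporter, changed by -0.39 in SJL, against -3.39 (SMJ), -2.19 (DBA) and -5.05 (C57), without a call in SJL (difference 3.15, adjusted p = 0.0201). Other probe sets for Slc1a2 gave -0.34 and -1.24 in SJL, neither of them called, so the size of the SJL change depends on the probe set. Cyp2e1, the chief P450 that activates APAP, had 16410.4, 15009.9 and 22498 at 6 h, against 13254, 14442 and 15919 at 3 h, with a difference of 0.29 and no call (adjusted p = 0.581).

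Among genes of the integrated stress response and the endoplasmic reticulum, 3 of 23 rose, against 1.44% of all tested genes: Atf5 and Fgf21, described above, and Ppp1r15a, the GADD34 subunit that restarts translation, which had 1455, 1110.1 and 1129 at 6 h, against 288, 554 and 756 at 3 h (log2 1.30, adjusted p = 0.00829). Of 14 p53 targets 3 rose, against the same 1.44%. They were Bbc3, which encodes the death protein PUMA, by 1.24 (adjusted p = 0.0307), Plk2, a polo-like kinase, by 1.01 (adjusted p = 0.0376) and Perp, a desmosome and death protein, by 0.60 (adjusted p = 0.0497). The Ppp1r15a, Bbc3 and Plk2 calls were lost without SJL39, and that of Perp without many single arrays.

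Among other liver cells, the Kupffer cell and macrophage, endothelial and stellate cell lists gave 1 call each, against 1.44% of all tested genes. The mean at 6 h was above that at 3 h for 10 of 13, 10 of 12 and 11 of 12 of their markers. At an unadjusted p under 0.05 were 7, 5 and 5, against 2068 of all 14057 tested genes. Of 13 Kupffer cell and macrophage markers, Vsig4 rose back after an early fall (log2 0.76, adjusted p = 0.0305), as did Fcgr2b (0.53, adjusted p = 0.0292) among 12 endothelial markers. Dcn, decorin, rose among 12 stellate cell and fibroblast markers (0.57, adjusted p = 0.0251). These 3 calls were each lost without SJL39, without SJL45 and without SJL48. Summed macrophage markers were 7684 to 9193 at 6 h, against 6021 to 6884 at 3 h and 7446 to 8834 at 0 h. Stellate cell and fibroblast markers were 7444 to 7741 at 6 h, against 4688 to 6528 at 3 h and 6209 to 7057 at 0 h. Endothelial markers were 4849 to 5504, 3568 to 4870 and 4994 to 5312, with a slight overlap of 6 h and 3 h. The 3 h sums lay below the 0 h sums for macrophage and endothelial markers, while those of stellate cell and fibroblast markers overlapped 0 h. By 3 h, 5 of 13, 2 of 12 and 3 of 12 markers were called lower, against 5.66% of all tested genes, and 1 macrophage marker was called higher. Of the fatty acid oxidation list 19 of 21 had fallen. The part of these cells in the lipid values was not tested. Of 14 secreted proteins that mark hepatocytes, none was called between 3 h and 6 h in limma, with 3 at an unadjusted p under 0.05. Counting this list, 14 of 33 lists gave no call after 3 h. At an unadjusted p under 0.05 were 40 of the 189 genes in these 14 lists, against 2068 of all 14057 tested genes. They include acetaminophen bioactivation and conjugation, the methionine cycle, cholesterol synthesis, glucose production, the circadian clock, ribosome biogenesis and autophagy. Of 18 ribosome biogenesis genes 9 rose by 3 h, against 4.47% of all tested genes, and 8 of the 9 were also called higher than 0 h at 6 h.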

How the data were processed

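RNA from 36 livers was measured on 1-colour Affymetrix arrays, 1 per mouse, after biotin labelling. The authors deposited intensity values per probe set, which their processing notes name as MAS5 signals. The MAS5 version is not given in the sources used here. Values were linear, with a mean of 150 on every array once 2% at either end was set aside, and were taken as deposited, without detection calls. Of 45101 probe sets, 34945 named 1 gene in the platform annotation, 34741 of these matched to RefSeq genes. A gene was represented by its brightest probe set over all arrays, passing over those marked as binding several transcripts where it had another, which gave 18193 genes. The 14057 with at least 3 arrays above the median of all values, 30.8, were tested.

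Log2 of signal plus 2.77, the 10th percentile of all values, was fitted in 12 groups of strain and time with limma 3.58.1 in R 4.3.3 (24 residual degrees of freedom, two-sided moderated tests, Benjamini-Hochberg over all genes tested, threshold 0.05). An early change passed 3 h against 0 h. It continued or returned if 6 h against 3 h passed in the same or the opposite direction. Mouse numbers differ between groups, so no samples were paired, and nothing in the labels beyond the number says how mice were housed or handled together. The number of arrays limits the precision. The procedure was tested on simulated data. Those data gave a gene the same spread in every group, so they cannot show how the calls fare with the wider spread of the SJL 3 h group.

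The comparison, the 33 gene lists (529 genes, 481 tested) and the rule for named genes were chosen with earlier results of these data known. The rule took the largest changes of each kind with separate ranges, the largest differences from the other strains, up to 4 genes of each list by p, and some fixed genes. Of 76 genes mentioned, 68 meet it, and Plin5, Acot1, Fabp1, Ppara, Cpt1a, Dnajb1, Bag3 and Socs3 were added after their values were seen. Promoter windows came from RefSeq (GRCm38.p6). Alternatives were 2 other scalings, 2 other offsets, 2 other filters, fits of the 6 or 9 SJL arrays, array weights, robust and trended priors, averaged probe sets, and leaving out each array.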

Additional observations from a re-analysis of the deposited data

Results flagged for a closer look

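The SJL change from 3 h to 6 h differed from the mean change of SMJ, DBA and C57, by limma's test of that difference, for 36 of the genes mentioned. Over all 14057 tested genes the difference was positive for 377 (2.68%) and negative for 167 (1.19%). Some genes were named for this same difference and others for their change in SJL, which is 1 term of it. The count of 36 therefore follows in part from how the genes were chosen. In log2 units the SJL change was higher for lipid droplet genes: Cidec 3.01, G0s2 3.44, Plin2 1.71, Plin5 2.23 and Mgll 1.50. Among fatty acid oxidation genes and PPARA targets it was higher for Pdk4 (2.45), Angptl4 (1.27), Acot1 (2.28), Acot2 (2.37), Ehhadh (1.54), Decr1 (0.85), Etfdh (0.83), Ppara (1.33), Cpt1a (0.66) and Fgf21 (3.01). Elovl3 (3.03), Dio1 (3.10), Chrna2 (3.77), Akr1b8 (1.28), Atf5 (0.93), Slc1a2 (3.15), Cyp7a1 (3.04), Oat (1.31) and Abcb4 (1.14) were also higher.

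The difference was negative for the feedback genes Socs2 (-2.26), Cish (-1.65) and Socs3 (-2.26). It was negative too for Cyp26a1 (-2.31), Mbd1 (-1.20), Bcl2l11 (-1.26), Cyp2b9 (-2.37), Abcb1a (-2.59), Slc4a9 (-3.69), Icam1 (-2.03), Ier3 (-2.45) and Pde4b (-2.68). These differences contain the SJL 3 h arrays, the most variable group of the series.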

How the results depend on the processing

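Of the 56 mentioned genes called from 3 h to 6 h, 0 kept the call in every one of the 48 alternatives. For 19 of the 56 the call was lost in no alternative other than the fits of the 6 or 9 SJL arrays. All 56 kept their direction wherever they were tested, which for Slc4a9 was 47 alternatives. Many alternatives could not change a direction. Fits of fewer arrays, other priors, other filters and leaving out an array outside the SJL 3 h and 6 h groups leave the log2 difference as it was. Of the 20 not called, 9 were called in some alternative. The fit of the arrays compared alone called 0 rises and 0 falls from 3 h to 6 h, 6 genes at 3 h against 0 h and 311 at 6 h against 0 h, with 0 early rises continued, 0 returned and 0 early falls returned. The fit of the 9 SJL arrays called 2 rises and 0 falls, 160 genes at 3 h and 163 at 6 h against 0 h, with 0 early rises continued, 0 returned and 2 early falls returned. Both have fewer residual degrees of freedom. Wherever they include the SJL 3 h group, the most variable with a median SD of 0.339, it also weighs more in their spread. The part of either in the lost calls was not tested. Array weights, which gave SJL39 a weight of 0.264, called 98 rises and 31 falls, 1563 genes at 6 h against 0 h, 3 continued and 13 returned early rises and 61 returned early falls. Averaged probe sets gave 55 falls, with 7 continued and 22 returned early rises. The cause was not tested.

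Leaving out single arrays gave 85 (without SJL44) to 333 (without SJL42) rises and 31 (SJL44) to 161 (SJL42) falls. It gave 933 (SJL1) to 1469 genes at 3 h against 0 h, 610 (SJL48) to 1155 at 6 h against 0 h and 252 (SJL44) to 734 that differed from the other strains. Continued early rises ranged over 4 to 21, returned early rises over 13 to 79 and returned early falls over 61 to 202. Early rises continued in 8 genes without SJL2, 4 without SJL39, 6 without SJL40, 5 without SJL44 and 4 without SJL45, and the 35 returned rises became 23, 56, 19, 13 and 19. No paired analysis was possible because the mouse numbers differ between groups. The number of arrays, 3 a group, limits what can be called.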
